A study of Homo sapiens with 6 samples.

Results

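The genes of the short arm side of human chromosome 3, those whose start lies below 70 Mb, were described in SW480 colon cancer cells with and without knockdown of ALDH1B1. A gene was a member when its symbol had a single locus on chromosome 3 with a start below 70000000 in the deposited table and its mean over the 6 samples was at least 0.7 RPM (reads scaled to a common depth, the table's scale once its log2 and offset are undone). There were 369 members among the 15451 genes tested in the series. The first member started at 3168600 and the last at 69788586, 183 lay on the plus strand and 186 on the minus strand. Another 130 symbols at a single locus in the region were below the minimum level. The region was selected on the measured difference between the knockdown and control samples, so every knockdown value of its members is given here as a description, with no test of the region.

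The short arm of chromosome 3 carries a large number of tumour suppressor genes and is often lost, as a whole or in pieces, in carcinomas of the kidney, lung and other organs. Its genes include VHL, which marks hypoxia-inducible factors for destruction, and TGFBR2, a receptor of the growth-restraining TGF-beta pathway. It also carries CTNNB1, which encodes beta-catenin, the effector of the Wnt pathway that most colon cancers, SW480 included, activate through damage to APC.

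The series measured RNA in 6 samples of SW480, an established line of colon cancer cells. The 3 samples of genotype ALDH1B1 KD form the knockdown group and the 3 samples of genotype WT form the control group. Each group is numbered 4, 5 and 6, with the treatment given as none in both. The control samples are titled SCR and CONTROL, and the titles do not say what SCR stands for. ALDH1B1 is a mitochondrial aldehyde dehydrogenase, and the single comparison of the series asks what its knockdown does to expression. How the knockdown was made, and whether the knockdown line is a single clone, was not given in the sources used here.

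To show what precedes the genes described below, the 250 bases upstream of the start are printed for 4 members: HDAC11 and ALS2CL, among the members with the largest differences, CTNNB1, the member with the most reads, and WDR82, a member with less RNA in the knockdown. They are RefSeq sequences of the build GRCh38.p14, 5′ to 3′ in the direction of the gene, with the GC box, GGGCGG or its reverse complement CCGCCC, in capitals. The windows are chr3:13480056-13480305 on the plus strand for HDAC11, chr3:46693680-46693929 on the minus strand for ALS2CL, chr3:41199255-41199504 on the plus strand for CTNNB1 and chr3:52278650-52278899 on the minus strand for WDR82. All other positions in the text are those of the deposited table, whose build is not GRCh38.
HDAC11: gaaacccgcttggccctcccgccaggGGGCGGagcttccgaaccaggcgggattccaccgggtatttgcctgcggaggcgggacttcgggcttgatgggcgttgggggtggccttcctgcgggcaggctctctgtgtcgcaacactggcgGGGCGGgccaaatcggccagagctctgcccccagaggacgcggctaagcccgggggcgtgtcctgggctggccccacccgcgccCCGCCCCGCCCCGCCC
ALS2CL: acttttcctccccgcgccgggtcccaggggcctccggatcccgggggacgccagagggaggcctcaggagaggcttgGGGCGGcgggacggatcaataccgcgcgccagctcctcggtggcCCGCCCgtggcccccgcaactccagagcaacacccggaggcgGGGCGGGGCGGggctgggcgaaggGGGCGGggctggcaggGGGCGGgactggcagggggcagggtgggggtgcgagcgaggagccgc
CTNNB1: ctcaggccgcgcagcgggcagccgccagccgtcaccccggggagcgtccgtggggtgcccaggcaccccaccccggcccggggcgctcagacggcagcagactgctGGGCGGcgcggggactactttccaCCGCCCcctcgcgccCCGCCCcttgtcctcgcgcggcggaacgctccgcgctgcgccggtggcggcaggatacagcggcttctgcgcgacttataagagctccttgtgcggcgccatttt
WDR82: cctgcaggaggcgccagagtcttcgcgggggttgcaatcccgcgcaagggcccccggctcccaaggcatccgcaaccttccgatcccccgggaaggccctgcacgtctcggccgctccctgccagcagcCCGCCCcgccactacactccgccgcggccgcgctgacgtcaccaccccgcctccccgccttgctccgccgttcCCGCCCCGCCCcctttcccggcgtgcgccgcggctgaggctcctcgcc

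HDAC11 held 5 GC boxes, ALS2CL 6, and CTNNB1 and WDR82 3 each, so the box stood before members that differed in both directions. RefSeq promoter windows were matched by symbol for 277 of the 369 members, with 397 windows in all because a gene can have several starts. A GC box lay in 62.2% of these windows, against 42.6% of all 35116 windows of the same 250 bases. The sets are unlike, since members were kept for a mean of at least 0.7 RPM while the full set covers RefSeq genes whatever their level, so these shares are given side by side with no comparison drawn. The TATA box, TATAAA on either strand, lay in 5.79% of the members' windows and in 10.7% of all. CCAAT on either strand lay in 27.0% against 32.0%, and the E-box CACGTG, which reads the same on both strands, in 8.31% against 6.34%. A match of letters is a description of the window and says nothing of binding there.

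ALDH1B1 itself lies on chromosome 9, at 38392661 to 38398659 in the table. It was measured at 34.1, 39.6 and 36.7 RPM in the control samples and at 20.0, 20.4 and 23.2 RPM in the knockdown samples. The knockdown mean was 57.6% of the control mean, a log2 fold change of -0.80 (SE 0.0925; limma adjusted p = 2.38e-07), and the exact two-sided permutation test gave p = 0.1, the smallest p that 3 samples against 3 allow. Depth was 20310000 to 28540000 reads per sample, so 3 reads correspond to 0.105 to 0.148 RPM. No label states that the replicates were separate cultures, so a p-value covers just the spread among these 6 samples, which may be technical. Of 12 colon epithelial markers, 10 were matched and 8 passed the minimum, with a summed level of 5500 to 5770 RPM in the controls and 5960 to 6290 RPM in the knockdown, mostly KRT8, KRT18 and KRT19, while KRT20 and LGALS4 were near 0. Single epithelial markers differed more than this sum: the group means of CDH1, which encodes E-cadherin, were 13.1 RPM in the controls and 51.0 RPM in the knockdown, those of VIL1 5.82 and 21.7 RPM, those of EPCAM 110.0 and 206 RPM, those of CLDN4 74.6 and 141 RPM, and those of CDX2 54.3 and 32.1 RPM. The part of these differences in the values of the members was not tested. The summed leukocyte markers were at 2.31 to 3.53 RPM in the controls and 1.96 to 2.66 RPM in the knockdown.

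Most members had more RNA in the knockdown samples. A gene is said to be called higher or lower when its limma adjusted p, over all genes tested, was under 0.05, and not called otherwise. Of the 369 members, 220 (59.6%) were called higher, against a background of 22.7% of all tested genes, and 11 were called lower, against a background of 19.3%. The log2 fold change, knockdown minus control, was positive for 321 members, with a median of 0.38 and quartiles of 0.16 and 0.71. It reached 1 or more in 43 members and -1 or less in 1 member, beside 722 and 193 of all 15451 tested genes. Of the 43, 19 had a mean of at least 3.5 RPM. The values ran from -1.86 to 2.97. The 2.97 was that of CCR3, with a control mean of 0.209 RPM, which reached the minimum of 0.7 RPM only through its knockdown samples. All 3 knockdown samples lay above all 3 control samples in 244 members (66.1%), against 26.5% of all tested genes. All 3 lay below in 21 members (5.69%), against 24.6% of all tested genes. Because the region was selected on this same contrast, nothing is read from the distance between these counts and their background. Control replicate 6 stood apart from the other controls in its median level. Without it 208 members were called higher and 12 lower, with a median log2 fold change of 0.33. The background moved too: over all genes tested, 3051 were then called higher and 3742 lower, where the fit on all 6 samples gave 3502 and 2975. In bulk RNA, more cells of a type and more RNA per cell cannot be told apart.

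On the other side of 70 Mb the values were different. The 483 tested genes of the rest of chromosome 3 had a median log2 fold change of -0.12, with quartiles of -0.34 and 0.16. Of these, 74 (15.3%) were called higher and 153 (31.7%) lower, beside 22.7% and 19.3% of all tested genes. The 13773 tested genes of the other chromosomes had a median of -0.01. Further stretches of the genome, also picked after their values were known, had medians like that of the members. The 582 tested genes of chromosome 2 below 130 Mb had a median of 0.46, and the 185 of chromosome 7 beyond 120 Mb had a median of 0.41. A median of this size was thus also present outside the members.

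**Figure D1:**
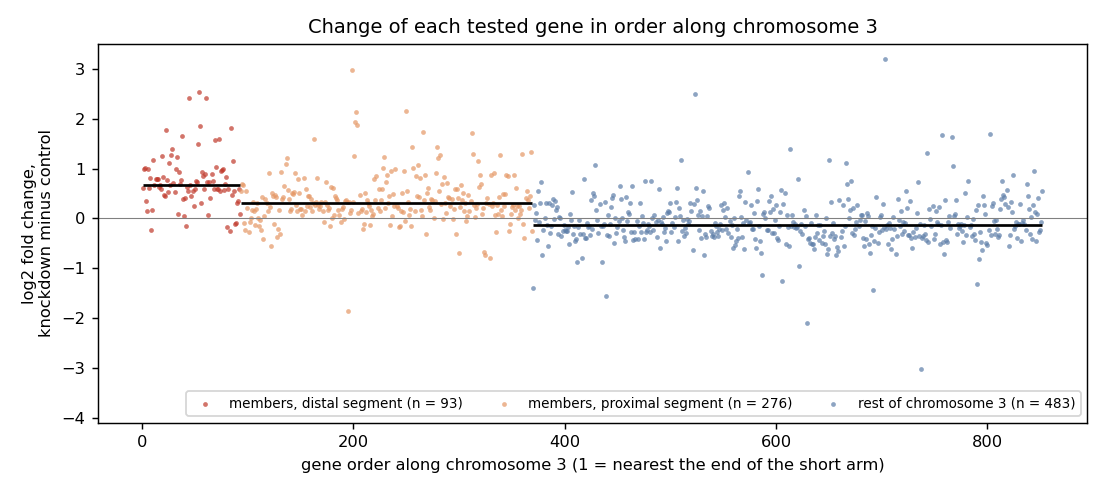
Log2 fold change (knockdown minus control, vertical axis) of each tested gene of chromosome 3, in order from the end of the short arm (horizontal axis, rank). Points are genes and black lines are medians, 0.68 for the 93 members nearest the end, 0.31 for the other 276 members and -0.12 for the 483 genes beyond.

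The members did not form a single level along the chromosome. The 93 members below 25 Mb, called the distal segment here, had a median log2 fold change of 0.68, with quartiles of 0.48 and 0.97. Of these, 76 (81.7%) were called higher and 0 were called lower, beside 22.7% and 19.3% of all tested genes. The 276 members from 25 to 70 Mb, the proximal segment, had a median of 0.31, with quartiles of 0.14 and 0.55, and 144 (52.2%) were called higher and 11 lower. The boundary at 25 Mb was set after the values were seen, so the step between the segments is a description. The plot of all genes in order along the chromosome draws these same values, with a median line for each segment, so it is no separate view of the step. In it the distal points lie almost all above 0 and the proximal points closer to 0.

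Windows of 5 Mb show how even each segment was. Between 5 and 10 Mb the median of 24 members was 0.78, between 10 and 15 Mb that of 36 members was 0.70, and between 15 and 20 Mb that of 20 members was 0.72. Within these 3 windows, 69 of 80 members (86.2%) were called higher, beside 59.6% of all members and 22.7% of all tested genes. The median was 0.33 over the 8 members between 20 and 25 Mb and 0.55 over the 7 between 25 and 30 Mb, too few to place a boundary closely. It was 0.14 over the 21 members between 30 and 35 Mb, the lowest of the 10 windows of the region that held at least 10 members. From there to 70 Mb the window medians lay between 0.22 and 0.43, with the 0.22 from 9 members between 60 and 65 Mb. The first window beyond 70 Mb, with 10 genes, had a median of 0.04, and the 22 windows of the rest of chromosome 3 with at least 10 genes had medians from -0.40 to 0.06. Among the smaller windows there, the 6 genes between 85 and 90 Mb had a median of 0.21, close to that between 60 and 65 Mb. The other small windows had medians from -0.13 to 0.01.

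**Figure D2:**
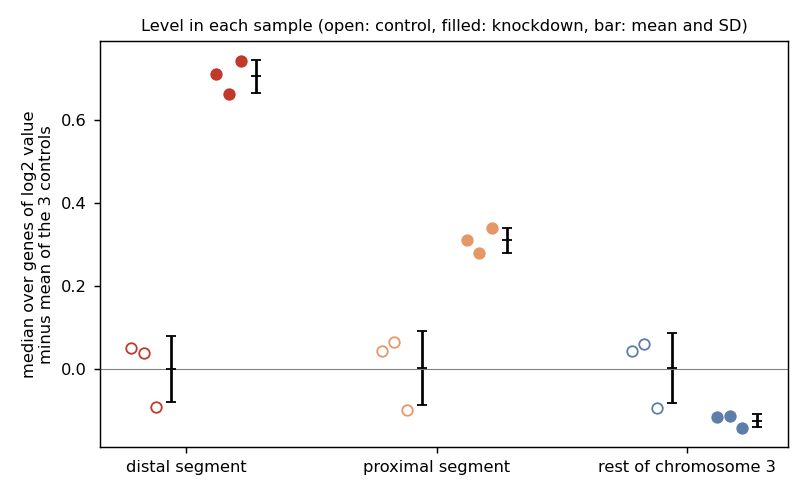
Median over genes of each gene's log2 value minus its mean in the 3 controls (vertical axis), for each sample (points; open, control; filled, knockdown) and gene group (horizontal axis), with mean and SD bars over 3 samples. The 3 knockdown samples lie above the 3 controls in both segments of the region and below them in the rest of chromosome 3.

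The difference was present in every knockdown sample. The level of the region in a sample was taken as the median over members of the log2 value minus the mean of the 3 controls. It was 0.044, 0.059 and -0.098 in control replicates 4, 5 and 6, and 0.408, 0.388 and 0.413 in the knockdown samples. The rest of chromosome 3 gave 0.044, 0.060 and -0.094 in the controls, so the low value of control replicate 6 was common to both sides of 70 Mb. In the knockdown the rest of the chromosome was at -0.116, -0.114 and -0.143. Subtracting it left the region at 0.000, -0.001 and -0.004 in the controls and at 0.525, 0.502 and 0.555 in the knockdown, means of -0.001 ± 0.002 and 0.527 ± 0.027 (SD, n = 3). The distal segment minus the rest of the chromosome was at 0.827, 0.776 and 0.885 in the knockdown samples, and the proximal segment at 0.427, 0.394 and 0.483. The groups did not overlap in either segment, in a region selected on this contrast and cut into segments after the values were seen. Each level is taken from the mean of the 3 controls, so the control levels centre near that mean by construction. Nothing is read from the gap between the groups.

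Counted in reads, the members held 1.86%, 1.85% and 1.83% of the reads of tested nuclear genes at a single locus in the controls, and 2.37%, 2.40% and 2.38% in the knockdown. The means were 1.85% ± 0.0153 and 2.38% ± 0.0153 (SD, n = 3). The share was thus nearly the same within each group and did not overlap between groups, in a region selected on this contrast.

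**Figure D3:**
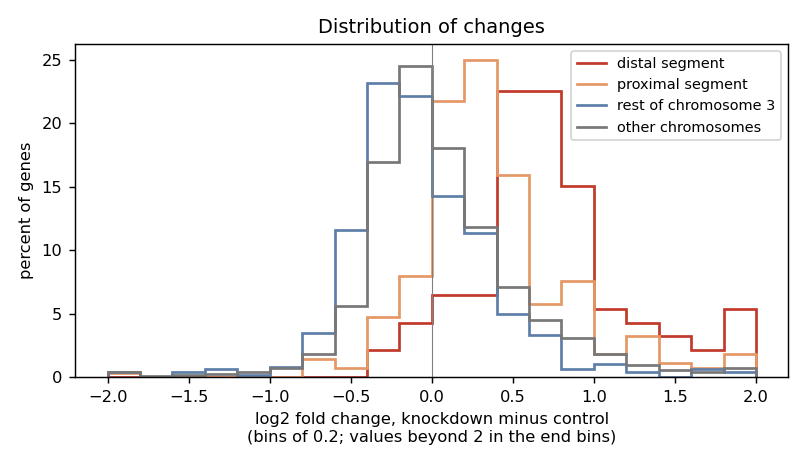
Percent of genes (vertical axis) in each bin of log2 fold change, knockdown minus control (horizontal axis; values beyond 2 either way are in the end bins), for both segments of the region, the rest of chromosome 3 and the other chromosomes. The distal segment lies farthest to the right, with its median at 0.68, and the proximal segment lies between it and the other genes, with its median at 0.31.

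The median was above 0 in every group of members by level and by length, with a limit for the groups with the fewest reads. In the distal segment the median log2 fold change was 0.98 over the 31 members with the fewest reads, 0.67 over the middle 31 and 0.69 over the 31 with the most. In the proximal segment it was 0.50, 0.27 and 0.22 over groups of 92 in the same order. Both the minimum of 0.7 RPM and these groups used the mean over all 6 samples, knockdown included. A member low in the controls could thus pass the minimum through its knockdown samples. The part of this selection in the 0.98 and the 0.50 was not tested, so nothing is read from their size. The groups with more reads began at means of 6.07 RPM (distal) and 8.51 RPM (proximal), above that minimum. Split by length in the table instead, the medians were 0.67, 0.62 and 0.74 in the distal segment and 0.32, 0.32 and 0.27 in the proximal segment, from the shortest to the longest. The 183 members on the plus strand had a median of 0.43 and the 186 on the minus strand one of 0.35. The 307 members that RefSeq lists as protein-coding had a median of 0.39. Of these, 193 (62.9%) were called higher and 8 (2.61%) lower, beside 22.7% and 19.3% of all tested genes.

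The few pseudogenes among the members had a lower median than the protein-coding members. The 16 members that RefSeq lists as pseudogenes had a median log2 fold change of -0.12. Of these, 3 (18.8%) were called higher and 2 (12.5%) lower, beside 22.7% and 19.3% of all tested genes. The 34 members with non-coding or unnamed symbols had a median of 0.63. Their sequences resemble parent genes elsewhere in the genome, so reads can be shared with those parents and the values are uncertain. An example is HMGB1P5, a copy of HMGB1 in the distal segment, with a log2 fold change of -0.12, and another is PSMC1P1, a copy of a proteasome subunit gene in the proximal segment, with -0.38.

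The member genes with known parts in tumour suppression came first, since they are what the short arm is best known for. Of 26 such genes listed, 18 were members. Their median log2 fold change was 0.37, beside 0.00 over all genes tested, and 11 were called higher and 1 lower. The share called higher, 61.1%, stood beside 59.6% of all members and 22.7% of all tested genes. The counts of the other lists below are to be read beside the same shares, since only members were counted in each list, and nothing is called particular to a list. Some genes listed lie outside the region and could not be members. They were 4 in the chromatin list, 1 zinc finger gene, 2 in the ribosome list and 1 in the endoplasmic reticulum list. Of the other suppressor genes listed, 6 had symbols at several loci and 2, RARB and LTF, were not matched.

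The 3 distal suppressor genes differed by similar amounts. VHL, the substrate receptor of a ubiquitin ligase for hypoxia-inducible factors, at 10182692 to 10193905, was at 19.6, 17.6 and 17.2 RPM in the controls and 30.4, 30.8 and 30.9 RPM in the knockdown. The groups did not overlap, and the log2 fold change was 0.76 (SE 0.0912). FANCD2, a Fanconi anaemia protein that acts at DNA crosslinks, at 10068098 to 10143615, was at 14.0, 14.3 and 11.8 RPM in the controls and 25.7, 23.9 and 26.1 RPM in the knockdown, a log2 fold change of 0.92 (SE 0.101). XPC, which recognises bulky DNA damage in nucleotide excision repair, at 14186647 to 14220284, was at 18.0, 20.2 and 16.8 RPM and then 30.6, 33.5 and 35.3 RPM, a log2 fold change of 0.86 (SE 0.0957). In all 3 genes the lowest knockdown sample was well above the highest control.

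The proximal suppressor genes ranged more widely and did not all differ in the same direction. RBM5, a splicing regulator at 50126341 to 50156455, was at 49.9, 44.3 and 40.1 RPM in the controls and 64.5, 69.5 and 71.2 RPM in the knockdown, a log2 fold change of 0.62 (SE 0.0861). CTDSPL, a phosphatase that acts on the retinoblastoma protein, had a log2 fold change of 0.43, NPRL2, a subunit of a complex that restrains mTORC1, one of 0.36, and LIMD1, a LIM domain adaptor, one of 0.35. CACNA2D2, a calcium channel subunit, had 0.91 (0.61 to 1.17 over the alternative settings). The chromatin regulators PBRM1 and SETD2 had log2 fold changes of -0.04 and 0.14 and were not called. The semaphorin SEMA3F, the cilium gene ZMYND10 and the protease ADAMTS9, with log2 fold changes of 0.18, 0.38 and 0.24, were not called either. Over the alternative settings their values ran from 0.05 to 0.25, from -0.04 to 0.69 and from 0.06 to 0.51, so no direction is given for ZMYND10.

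TGFBR2, known for its loss in colon cancer, differed in the other direction. TGFBR2, at 30647994 to 30735635, was at 30.0, 28.6 and 28.0 RPM in the controls and 24.5, 23.7 and 23.1 RPM in the knockdown, a log2 fold change of -0.28 (SE 0.0875). It was called lower, but was not called without control replicate 4, where the log2 fold change was -0.25. The calls of 3 suppressor genes in the higher direction also depended on single samples. BAP1, a deubiquitinase at chromatin, had a log2 fold change of 0.23 and was not called without control replicate 6 (0.17), knockdown replicate 4 (0.19) or knockdown replicate 6 (0.22). ITGA9, at about 1 RPM, had a log2 fold change of 0.92 (0.50 with a pseudocount of 1) and was not called without control replicate 5 (0.74), control replicate 6 (0.74), knockdown replicate 4 (0.73) or knockdown replicate 5 (0.87), and DLEC1, also at about 1 RPM, had 1.22 (0.52 with a pseudocount of 1) and was not called without knockdown replicate 5 (1.10).

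Several familiar suppressor genes of the short arm have further loci on patch or alternate sequences in the table and were left out by the rule. Of the symbols of this kind with a single locus on the primary chromosome, 21 passed the minimum level. Their median log2 fold change was 0.35, and 17 (81.0%) were called higher and 0 lower, beside 22.7% and 19.3% of all tested genes. RASSF1, a scaffold that is often silenced in tumours, had a log2 fold change of 0.31, the semaphorin SEMA3B one of 1.10, the hyaluronidase HYAL1 one of 1.46, and FHIT, a diadenosine hydrolase at a fragile site, one of 0.86.

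**Figure D4:**
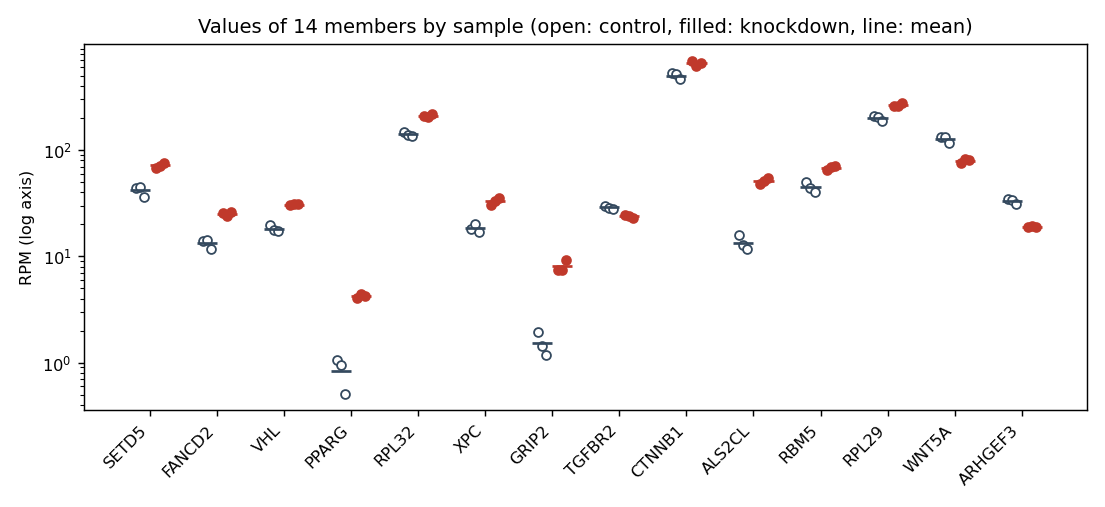
RPM (log axis, vertical) of 14 members in each sample (open, control; filled, knockdown; short lines, group means), ordered by position from the end of the short arm (horizontal axis). Knockdown samples lie above the controls for VHL, CTNNB1 and 9 other members, and below them for TGFBR2, WNT5A and ARHGEF3.

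Signalling genes were the largest list. Of 42 listed, 35 were members, with a median log2 fold change of 0.33, and 23 were called higher and 4 lower. CTNNB1, at 41236328 to 41301588, was the member with the most reads, at 528, 516 and 466 RPM in the controls and 696, 623 and 660 RPM in the knockdown. All 3 knockdown samples were above all controls, and the log2 fold change was 0.39 (SE 0.078). The 2 Wnt ligands among the members went opposite ways. WNT5A, a ligand of mainly non-canonical Wnt signalling at 55499743 to 55523974, was at 132, 132 and 117 RPM in the controls and 75.8, 83.0 and 80.2 RPM in the knockdown, a log2 fold change of -0.67 (SE 0.0772). WNT7A, at 13857755 to 13921619, was at 1.15, 0.854 and 0.722 RPM in the controls and 4.89, 4.86 and 5.89 RPM in the knockdown, a log2 fold change of 2.54 (SE 0.22). Over the alternative settings the WNT7A value ran from 1.7 to 2.73.

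Several signalling genes of the distal segment were called higher. PPARG, a nuclear receptor that is active in fat cells and colon epithelium, was at 1.05, 0.949 and 0.510 RPM in the controls and 4.08, 4.42 and 4.20 RPM in the knockdown, a log2 fold change of 2.41 (SE 0.254), which was 1.52 with a pseudocount of 1. BHLHE40, a transcription factor of the circadian and hypoxia responses, was at 44.1 ± 8.18 RPM in the controls and 87.0 ± 3.76 RPM in the knockdown (SD, n = 3). CAMK1, a calmodulin-dependent kinase, was at 3.40 ± 0.736 and 7.99 ± 0.317 RPM. NR1D2, a circadian nuclear receptor in the same segment, had a log2 fold change of 0.08 and was not called.

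Proximal signalling genes were mixed. ARHGEF3, a guanine nucleotide exchange factor at 56761446 to 57113358, was at 34.7, 33.6 and 31.0 RPM in the controls and 18.9, 19.2 and 19.1 RPM in the knockdown, a log2 fold change of -0.79 (SE 0.0891). RHOA, a small GTPase of the cytoskeleton, had a log2 fold change of 0.20 and was not called without control replicate 4 or 6 or knockdown replicate 5 or 6, with values from 0.13 to 0.22. PRKAR2A, a regulatory subunit of protein kinase A, had a log2 fold change of -0.14 and was not called. The receptor tyrosine kinase MST1R and the semaphorin receptor PLXNB1 had log2 fold changes of 0.86 and 0.85.

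Chromatin and transcription genes had a median log2 fold change of 0.32 over 21 members of 26 listed, with 12 called higher and 1 lower. HDAC11, a histone deacetylase whose upstream window is printed above, was at 3.57, 2.66 and 2.30 RPM in the controls and 8.41, 7.22 and 7.91 RPM in the knockdown, a log2 fold change of 1.49 (SE 0.165). SETD5, a SET domain gene in the distal segment, was at 44.1, 44.8 and 36.6 RPM and then 68.3, 71.2 and 76.2 RPM, a log2 fold change of 0.79 (SE 0.0869). WDR82, a subunit of histone methyltransferase and phosphatase complexes, went the other way, at 96.8, 103 and 97.0 RPM in the controls and 78.4, 76.6 and 84.7 RPM in the knockdown, a log2 fold change of -0.31 (SE 0.0756). SMARCC1, a core SWI/SNF subunit, had -0.13 and was not called, and UBP1, a transcription factor, had 0.32. Of 18 zinc finger genes listed, 11 were members, with a median of 0.24, and 5 were called higher and 0 lower. ZNF589 had the largest log2 fold change among them, 0.79, and ZNF35 the smallest, 0.02.

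Of 18 genes of DNA repair and cell division, 16 were members, with a median log2 fold change of 0.40, and 11 were called higher and 0 lower. This list shares FANCD2 and XPC, among others, with the suppressor genes. TOP2B, a DNA topoisomerase, had a log2 fold change of 0.55 and KIF15, a mitotic kinesin, one of 0.41. CDC25A, a phosphatase that starts the cell cycle, and CLASP2, a microtubule-binding protein, had 0.08 and 0.14 and were not called.

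Genes of the ribosome, translation and RNA handling were almost all at or above 0. Of 32 listed, 29 were members, with a median log2 fold change of 0.41, and 18 were called higher and 0 lower. The distal RPL32, a protein of the large ribosomal subunit, was at 148.8, 139.0 and 135.5 RPM in the controls and 209, 207 and 219 RPM in the knockdown, a log2 fold change of 0.59 (SE 0.0729). RPL29, a proximal gene of the same subunit, was at 209, 206 and 188 RPM and then 262, 261 and 276 RPM, a log2 fold change of 0.41 (SE 0.0737). RPSA, of the small subunit, had 0.20 and was not called without control replicate 4 or 5 or knockdown replicate 4 or 5, with values from 0.15 to 0.21. Ribosomal protein genes have many processed copies in the genome, so their reads may be split. NUP210, a nuclear pore protein, had a log2 fold change of 0.74, and CNOT10, of the mRNA deadenylase complex, one of -0.03.

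Metabolic and mitochondrial genes varied widely. Of 38 listed, 33 were members, with a median log2 fold change of 0.25, and 17 were called higher and 1 lower. AMT, an enzyme of glycine cleavage, was at 1.85 and 5.02 RPM in the group means, a log2 fold change of 1.44. Over the alternative settings the AMT value ran from 1.08 to 1.52. SLC6A6, the taurine transporter, was at 53.1, 54.6 and 49.7 RPM in the controls and 93.7, 99.4 and 99.2 RPM in the knockdown, a log2 fold change of 0.89 (SE 0.0766). SLC6A20, a proline transporter of the same family, was at 2.03, 1.42 and 1.95 RPM in the controls and 0.285, 0.639 and 0.650 RPM in the knockdown, the lowest log2 fold change of any member, -1.86 (SE 0.351), which was -0.88 with a pseudocount of 1. GPX1, a glutathione peroxidase, and IMPDH2, an enzyme of guanine nucleotide synthesis, had 0.08 and -0.15 and were not called. APEH, a peptidase, had 0.45.

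In the endoplasmic reticulum, Golgi and vesicle list, 28 of 30 genes were members, with a median log2 fold change of 0.34, and 19 were called higher and 2 lower. GRIP2, a scaffold that binds glutamate receptors, was at 1.96, 1.42 and 1.19 RPM in the controls and 7.51, 7.37 and 9.29 RPM in the knockdown. Its log2 fold change of 2.42 (SE 0.189) was the highest among members with a mean of at least 3.5 RPM. That mean was over all 6 samples, and the control samples of GRIP2 were all below 3.5 RPM. ARF4, a small GTPase of Golgi traffic, was at 152, 162 and 164 RPM and then 132, 123 and 140 RPM, a log2 fold change of -0.28 (SE 0.075). STT3B, a subunit of the oligosaccharyltransferase, had -0.07 and was not called. ATG7, an activating enzyme of autophagy, had 0.62. In the ubiquitin list, 17 of 21 genes were members, with a median of 0.27, and 10 were called higher and 0 lower. UBA7, the activating enzyme for the ubiquitin-like ISG15, had the largest log2 fold change there, 1.74, with 1.49 ± 0.583 RPM in the controls and 4.67 ± 0.435 RPM in the knockdown (SD, n = 3). Over the alternative settings the UBA7 value ran from 1.22 to 1.99.

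Cytoskeletal, adhesion and matrix genes had a median log2 fold change of 0.35 over 25 members of 33 listed, with 13 called higher and 0 lower. COL7A1, the collagen of anchoring fibrils, was at 6.44, 4.93 and 4.04 RPM in the controls and 12.2, 11.4 and 12.1 RPM in the knockdown, a log2 fold change of 1.24 (SE 0.144). MAP4, a microtubule-associated protein, and DAG1, dystroglycan, had 0.05 and 0.15 and were not called. Of 15 leukocyte genes of the region, such as the chemokine receptor cluster, 3 were members. CCR3 was at 0.315, 0.142 and 0.170 RPM in the controls, close to the level of 3 reads, and at 1.47, 1.67 and 1.49 RPM in the knockdown, with a fitted log2 fold change of 2.97, which was 1.08 with a pseudocount of 1. CXCR6 and HRH1 had 0.17 and -0.15 and were not called, and their values ran from -0.05 to 0.35 and from -0.36 to -0.01 over the alternative settings.

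**Figure D5:**
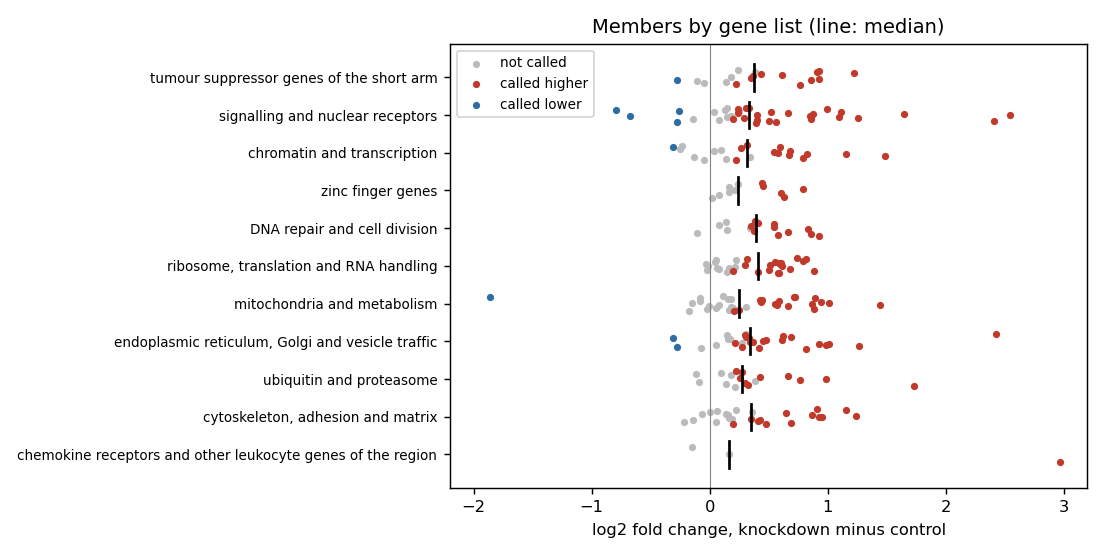
Log2 fold change, knockdown minus control (horizontal axis), of the members in each gene list (vertical axis); red points were called higher, blue points called lower, grey points not called, and black lines are medians. The medians lie between 0.17 and 0.41, and the blue points are few.

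The largest differences were not confined to 1 segment or 1 kind of gene. Among members with a mean of at least 3.5 RPM, GRIP2 was followed by ALS2CL, an exchange factor for Rab5 proteins in the proximal segment at 46710487 to 46735195. ALS2CL was at 15.9, 12.9 and 11.6 RPM in the controls and 47.5, 50.9 and 54.1 RPM in the knockdown, a log2 fold change of 1.93 (SE 0.103). TTLL3, a tubulin glycylase of the distal segment, was at 4.51, 3.25 and 2.98 RPM and then 10.7, 13.4 and 12.0 RPM, a log2 fold change of 1.77 (SE 0.152). VIPR1, a receptor for vasoactive intestinal peptide, was at 8.15, 7.81 and 7.43 RPM in the controls and 22.0, 22.7 and 26.2 RPM in the knockdown, a log2 fold change of 1.60 (SE 0.107). PRRT3, a proline-rich membrane protein, had 1.40. The minimum of 3.5 RPM was on the mean of all 6 samples. GRIP2, PRRT3, HDAC11 and CAMK1, with control means of 1.52, 2.28, 2.84 and 3.40 RPM, reached it only through the knockdown samples. The antisense gene SH3BP5-AS1 had 1.57. It overlaps its partner SH3BP5 on the opposite strand. Whether strand was used in assigning reads is not stated, so reads of this pair cannot be told apart. TTLL3 and the read-through gene ARPC4-TTLL3 overlap on the same strand, so strand could not separate their reads in any case.

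The 11 members called lower all lay in the proximal segment. Besides TGFBR2, SLC6A20, WDR82, WNT5A, ARHGEF3, ARF4 and PSMC1P1, they were TCEA1P2, MON1A, PTPRG and the unnamed locus RP11-168J18.6. MON1A, of an exchange complex for Rab7 proteins, and PTPRG, a receptor tyrosine phosphatase, had log2 fold changes of -0.31 and -0.26. MON1A was not called without control replicate 4 or 5 or knockdown replicate 4 or 5, with values from -0.34 to -0.24, and PTPRG without control replicate 4 or 5 or knockdown replicate 4 or 6, with values from -0.26 to -0.22. TCEA1P2, a pseudogene at -0.32, was not called without control replicate 4 (-0.26) or knockdown replicate 5 (-0.27). In the distal segment the 17 members not called included FGD5, an exchange factor for Cdc42, with a log2 fold change of 0.06, and UBE2E2, a ubiquitin-conjugating enzyme, with -0.09.

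At the 70 Mb boundary, the last 3 members were ARL6IP5, FRMD4B and MITF, with log2 fold changes of 0.45, 1.34 (0.85 with a pseudocount of 1) and -0.25. The first 3 tested genes beyond it were FOXP1, EIF4E3 and RYBP, with -1.39, 0.27 and -0.04. At the level boundary of 0.7 RPM, the members with the lowest means were COLQ, KRT8P35 and ASB14, at 0.702, 0.758 and 0.778 RPM. The genes of the region just under it were CACNA2D3, EOMES and RP11-97C16.1, at 0.688, 0.658 and 0.658 RPM.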

How the data were processed

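RNA from 6 samples, 3 knockdown and 3 control, was sequenced from strand-specific libraries, per the labels' protocols. The submitters' processing notes name Partek, Bowtie and hg38, without versions. The largest end on chromosome 1 in the table, 249214146, lies beyond chromosome 1 of GRCh38, so the build, gene models and counting behind the table count as not given in the sources used here. Values deposited by the authors are the log2 of RPM plus 0.0001, a scale read from the values. Depth came from the step between low values, of which 80.9% to 82.4% lay within 0.02 reads of a whole number, so no count model was run. Symbols at several loci had identical values at each locus.

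limma 3.58.1 in R 4.3.3 (lmFit, eBayes with a variance trend) was fitted to the deposited log2 values of the 15451 genes whose mean reached 0.7 RPM, after a test on simulated data. Tests were two-sided, p-values were adjusted over these genes by the Benjamini-Hochberg method, and the threshold was 0.05. Group values are the mean and SD of 3 samples in RPM, and SE is limma's. Python 3.11.15 and matplotlib 3.10.9 did the rest.

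The members, gene lists and tests were chosen with earlier results of these data known. Named by rule were ALDH1B1, the 10 highest and 8 lowest members at 3.5 RPM or more, the 8 with the most reads, the suppressor genes, the 4 with the most reads and the extremes of each other list, and the genes at both boundaries; not all of these are named, and some are not reported here. PPARG, BHLHE40, NR1D2, MST1R, PLXNB1, SETD5, NUP210, SLC6A6, ATG7, PTPRG, HMGB1P5, FGD5, UBE2E2 and the symbols at several loci were named after their values were seen. Alternatives were the scaling, pseudocounts of 0.1 and 1, filters, no variance trend, a replicate block and leaving out each sample.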

Additional observations from a re-analysis of the deposited data

How the results depend on the processing

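Over the 13 alternatives to the fit reported, 186 to 239 members were called higher and 8 to 14 lower. Their median log2 fold change stayed between 0.33 and 0.43. The share of members called higher ran from 43.3% to 64.8%. Over all genes tested, the same alternatives called 2723 to 3932 higher and 2027 to 3742 lower. The lowest count, 186, came with a minimum mean of 3.5 RPM, which left 289 members, so the share was 64.4%. The lowest share, 43.3%, came with no filter on low values, where 216 of 499 members were called higher. The median of the members minus that of the rest of chromosome 3, 0.51 as reported, was 0.44 with a pseudocount of 1, 0.54 with no filter on low values, and 0.50 to 0.53 when each sample was left out in turn. Same-numbered samples deviated together with correlations of -0.05, -0.06 and -0.12, so a shared number is no pairing; with a replicate block 203 members were called higher and 9 lower. Without the members that RefSeq lists as pseudogenes, an alternative chosen after seeing the data, 217 were called higher and 9 lower and the median was 0.40. Members near 0 changed sign when single samples were left out: FGD5 ran from -0.06 to 0.16, MAP4 from -0.04 to 0.13 and CNOT10 from -0.13 to 0.03. Depth limits members near 1 RPM, where 3 reads are 0.105 to 0.148 RPM.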
